A study of Mus musculus with 12 samples.

Results

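The transcripts described here are those of the cytosolic ribosomal proteins, the protein components of the ribosomes that translate messenger RNA in the cytoplasm. A row of the expression tables was taken as a member when its gene name began with Rpl or Rps and a number, or was Rplp0, Rplp1, Rplp2 or Rpsa, and its mean was 1 TPM or more in a tissue. Rows with -ps in the name and the Rps6k kinases were left out. Of the 55416 rows, 94 fitted the name rule and 87 were members, while 7 (Rpl10l, Rpl32l, Rpl39l, Rpl3l, Rpl6l, Rps3a2 and Rps3a3) stayed under 1 TPM in both tissues. All 87 members were tested in both tissues. The names held more than the ribosome: 46 members encode large subunit proteins and 31 small subunit proteins, and these 77 are called core members below. Another 4 are related genes with products of their own (Rpl7l1, Rpl22l1, Rpl36al and Rps27l), 5 are copies or retrogenes (Rps4l, Rps12l1, Rps27rt, Rpl37rt and Rps23rg1), and 1, Rps19bp1, encodes a protein that binds Rps19.

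Male C57BL6/J mice, 8 weeks old at the start, were injected subcutaneously every day for 8 weeks with corticosterone (CORT, the main glucocorticoid of rodents) at 40 mg/kg or with vehicle (Veh), a DMSO, Tween-80 and water mixture that both groups received. RNA-seq was made from frozen duodenum (the intestine samples) and liver, with 3 Veh and 3 CORT libraries per tissue and 12 libraries in all. Neither the labels nor the methods name a genetic change in either group. The labels number the libraries as biological replicates and do not tie them to animals, so p-values measure the spread between these samples. Values are TPM, a transcript's share of each library after correction for its length, so a lower TPM is a lower share and says nothing of the total RNA in the tissue. In whole tissue, fewer cells of a type and less RNA per cell cannot be told apart.

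Ribosomal proteins are made in near-equal numbers, because each ribosome holds a single copy of almost every one, and their genes tend to be transcribed together. Their transcripts are short, abundant and stable, and many begin with a terminal oligopyrimidine (TOP) tract, a C at the cap followed by a run of C and T. Through this tract the TOR kinase pathway raises or lowers the translation of all of them at once. The liver, which makes most plasma proteins, and the rapidly renewing intestinal epithelium both devote much of their messenger RNA to ribosomal proteins.

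The tissues matched their labels. Alb, the hepatocyte serum albumin, ranged from 32822.7 to 59475.5 TPM in liver and from 0.13 to 0.39 TPM in intestine, and Vil1, a protein of the enterocyte brush border, from 838.74 to 1435.61 TPM in intestine and from 0.02 to 0.34 TPM in liver. The glucocorticoid target Fkbp5 rose with CORT in both tissues, with log2 fold changes of 4.30 in intestine and 4.23 in liver (limma, adjusted p = 0.0045 and 0.0018). Markers of other cells differed between libraries. In intestine, the summed level of 38 genes of pancreatic acinar cells, which make digestive enzymes, was 4.76% and 3.89% of all TPM in Veh2 and Veh3, but 0.0627% in Veh1 and 0.0587% to 0.0852% in the CORT libraries. Of the 14 lymphocyte and plasma cell genes tested there, 12 were lower in CORT, and the sum over 15 such genes lay between 8030.18 and 9804.39 TPM in Veh and between 2720.02 and 4365.49 TPM in CORT. Nearly all of this sum was Igha and Jchain, genes of antibody-secreting plasma cells. Their means were 8098 and 878 TPM in Veh and 3127 and 327 TPM in CORT. Of the T cell genes, Cd3e, Cd3g, Cd8a, Cd8b1, Cd4 and Lck had lower means in CORT. Cd4 went from 6.53 to 4.18 TPM and Cd3g from 22.0 to 20.5 TPM, while Cd3d was at 5.83 and 5.95 TPM. In liver the same 15 genes were near 0, summing to 8.21 to 22.24 TPM in Veh and 2.33 to 3.97 TPM in CORT. The part of these cells in the results that follow was not tested.

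The members' start sites are shown for core members at both ends of the liver result described further on, and for 2 related genes. RefSeq start sites on GRCm38.p6 were held for 65 of the 87 members and 57 of the 77 core members. This build differs from the GRCm39 of the expression tables, and coordinates are given for it alone. Each line gives 10 bases before the annotated start and 20 from it on, read on the gene's own strand, with capitals marking a C followed by at least 5 letters that are all C or T, beginning within 10 bases of the start. The first 4 are the core members with the lowest liver log2 fold change among those held, the next 4 those with the highest, and the last 2 the related genes.
Rpl35a, chr16:33056472-33056501, plus strand: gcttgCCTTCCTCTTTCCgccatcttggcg
Rpl23, chr11:97782420-97782449, minus strand: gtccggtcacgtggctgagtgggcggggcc
Rpl14, chr9:120571507-120571536, plus strand: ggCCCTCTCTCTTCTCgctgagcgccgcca
Rps18, chr17:33955646-33955675, minus strand: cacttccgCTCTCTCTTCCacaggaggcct
Rpl41, chr10:128549149-128549178, minus strand: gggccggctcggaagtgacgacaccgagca
Rpl5, chr5:107900518-107900547, plus strand: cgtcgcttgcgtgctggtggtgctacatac
Rpl18, chr7:45718061-45718090, plus strand: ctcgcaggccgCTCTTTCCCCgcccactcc
Rps3, chr7:99483690-99483719, minus strand: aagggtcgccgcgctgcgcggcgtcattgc
Rpl7l1, chr17:46782637-46782666, minus strand: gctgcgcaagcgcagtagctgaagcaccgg
Rpl36al, chr12:69184048-69184077, minus strand: ccgtcgctcaggttcagttccgacttccgc
Rpl35a, Rpl14, Rps18 and Rpl18 held such a run and the other 6 did not. In the whole RefSeq table, 29 of 57 core members (50.9%) and 5291 of 27025 genes (19.6%) held it on their own strand at any listed start. The letters ACTTCCG, the core of a site for ETS family factors, stood on either strand of the 300 bases around the start in 20 of the 57 core members (35.1%) and in 7.20% of all genes. The liver log2 fold change had a median of -0.36 over the 29 core members with the run and of -0.34 over the 28 without it. These matches are letters in a window, and an annotated start can lie some bases away from the one used.

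In liver the whole group took a lower share of the transcripts in every CORT library. Ribosomal protein transcripts summed to 33074, 43560 and 36058 TPM in Veh1 to Veh3, and to 27561, 30132 and 31002 TPM in CORT1 to CORT3. The groups did not overlap, although Veh1 lay closer to the highest CORT library than to Veh2, the highest of all. The mean was 37564 ± 5403 TPM in Veh and 29565 ± 1789 TPM in CORT (SD, n = 3 each), a difference of -21.3% (exact two-sided permutation test, p = 0.1, the smallest that 3 libraries against 3 can give). Without Veh2 the difference of the core sum was -14.8%, against -21.6% with it. In intestine the members summed to 73392, 63963 and 70668 TPM in Veh and to 68588, 60995 and 63602 TPM in CORT. These groups overlapped, and the difference of -7.13% had an exact two-sided permutation p of 0.2. In Veh mice, a core member's level in liver was between 0.098 and 0.98 times its level in intestine, so all 77 were at a lower share in liver. The tables of the tissues were made separately, and this difference was not tested.

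**Figure D1:**
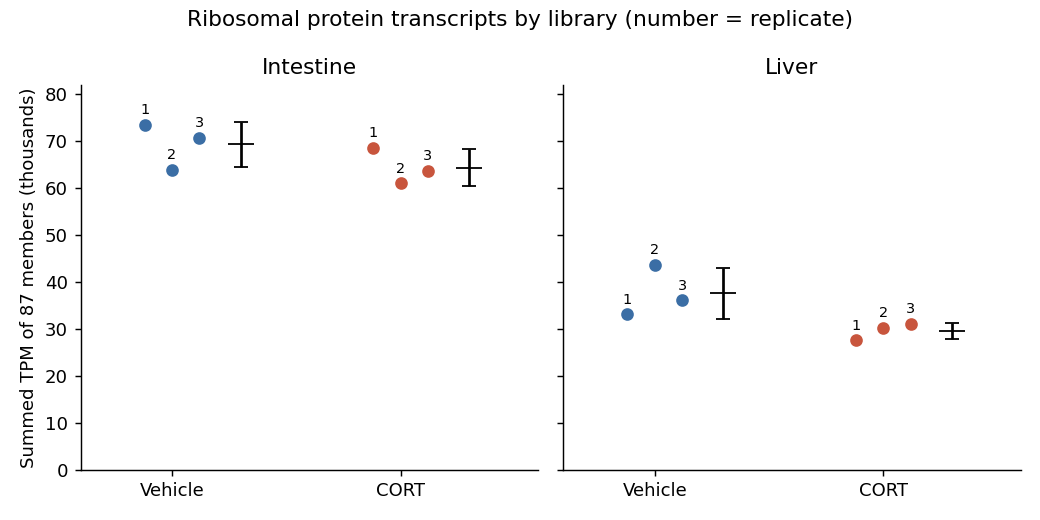
Summed TPM, in units of 1000 TPM, of the 87 members in each library, for intestine (left) and liver (right). Each point is a library with its replicate number, and the bar beside each group shows the mean and SD of 3 libraries. The 3 liver CORT libraries, at 27561 to 31002 TPM, lie below the 3 Veh libraries, while the intestine groups overlap.

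Nearly every single gene shared the direction in liver. On the log2(TPM + 1) scale, all 77 core members had a lower mean in CORT, with fold changes from -0.57 for Rps27a to -0.05 for Rps3, while 41.6% of the 11699 genes tested had a lower mean. The median log2 fold change was -0.34 over the 77 core members and 0.08 over all genes tested. The lower end of the Veh libraries lay above the upper end of the CORT libraries in 53 of 77 core members and in 56 of 87 members, against a background of 11.6% of all genes tested. An unadjusted p under 0.05 with a lower level was reached by 40 of 87 members, against 9.06% of all genes. The 24 core members whose groups overlapped were Rpl10a, Rpl15, Rpl18, Rpl30, Rpl36, Rpl37, Rpl37a, Rpl41, Rpl5, Rpl9, Rplp1, Rplp2, Rps10, Rps14, Rps15a, Rps20, Rps21, Rps26, Rps28, Rps29, Rps3, Rps4x, Rps6 and Rps9. Genes of the same libraries are not independent replicates, so no p is given for these counts.

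Few members passed the test of each gene alone. The rule for a call could not be met by a core member with TPM as deposited, since the lowest core value of -0.57 lay short of the fold limit of 0.585 on the log2 scale. A gene was called when its fold change was over 1.5 and its adjusted p at most 0.05 (limma, Benjamini-Hochberg over 11699 genes). By this rule 2 of 87 members were called in liver, both lower and neither a core member. The background was 6.92% of genes called in either direction and 2.01% called lower, so the members' count stood at the level of all genes. Among core members the smallest adjusted p was 0.056, for Rps18. The count turned on how libraries were scaled. After a median-ratio scaling, which divides each library by the median of its genes' ratios to their geometric mean over the libraries, 8 members were called, all lower: Rps18, Rps27a, Rpl14, Rpl3, Rpl35a, Rpl23, Rps23rg1 and Rps12l1. The background under that scaling was 4.02% called lower, and the median of the members was -0.44 with that of all genes at 0.00. With the adjusted p alone, 39 of 87 members passed under it, all lower, against 5.2% of all genes. Over all genes, 575 were called higher and 235 lower with TPM as deposited, and 543 and 468 after the scaling. The direction of the core members was the same under both.

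The libraries differed among themselves as one block of genes. Each gene's log2(TPM + 1) was set against its mean over the 6 liver libraries. The median of this deviation over the core members was 0.01 in Veh1, 0.39 in Veh2 and 0.12 in Veh3. In CORT1, CORT2 and CORT3 it was -0.26, -0.14 and -0.11. Veh2 was above the gene's mean for 77 of 77 core members and CORT1 for 0 of 77, while Veh1 was above it for 39. Without Veh2, 74 of 77 core members kept a lower mean in CORT, and the groups did not overlap in 53. Over all genes tested, 13.1% were lower without overlap when Veh2 was left out, and the median log2 fold change was 0.17. The 6 intestine libraries spread less, with medians from -0.13 in CORT2 to 0.13 in Veh1, and Veh2 there stood at -0.07, below CORT1 at 0.04.

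**Figure D2:**
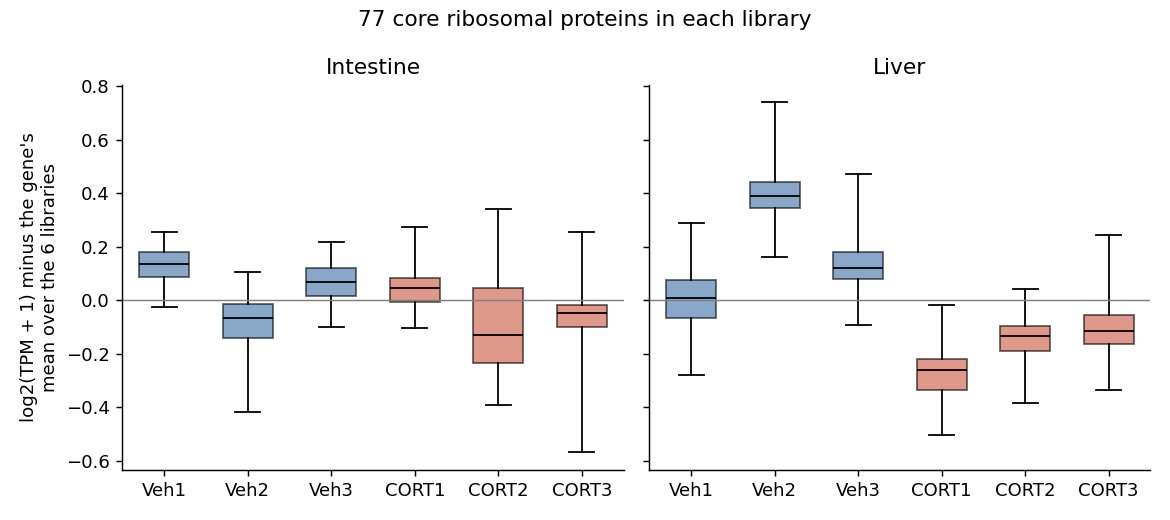
Deviation of each core member's log2(TPM + 1) from its own mean over the 6 libraries of a tissue. Boxes show the quartiles and median over 77 genes and whiskers the lowest and highest gene, with Veh in blue and CORT in red. In liver the medians run from 0.39 in Veh2 to -0.26 in CORT1, and in intestine the libraries of both groups mix.

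The small and large subunits differed between the groups by like amounts in liver. The 46 large subunit transcripts summed to 20657 ± 2696 TPM in Veh and 16236 ± 963 TPM in CORT (SD, n = 3), a difference of -21.4%. The 31 small subunit transcripts summed to 15884 ± 2594 and 12414 ± 813 TPM, a difference of -21.8%. The ratio of the small to the large sum was 0.739, 0.791 and 0.770 in Veh and 0.759, 0.765 and 0.769 in CORT, so the groups overlapped. In intestine this ratio was 0.856, 0.847 and 0.852 in Veh and 0.837, 0.831 and 0.839 in CORT, and the groups did not overlap.

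Among large subunit members, Rpl35a was at 630.55, 749.77 and 630.02 TPM in liver Veh and at 467.55, 444.83 and 483.42 TPM in CORT. Its log2 fold change was -0.52 (SE 0.13, limma adjusted p = 0.058). Rpl23, a large subunit protein that also binds the p53 regulator Mdm2, was at 265.67, 320.96 and 264.23 TPM in Veh and 186.44, 201.46 and 208.40 TPM in CORT (-0.51, SE 0.13, adjusted p = 0.065). For both genes every CORT library lay clearly below every Veh library. Rpl3, which lies close to the site where peptide bonds form, was at 253.39, 314.09 and 278.79 TPM in Veh and 164.04, 239.82 and 184.52 TPM in CORT (-0.53, SE 0.17, adjusted p = 0.11). These genes and Rps18 were singled out after their values were seen. The groups of Rpl3 did not overlap either, but CORT2 came near Veh1.

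The acidic stalk of the large subunit, which recruits the translation factors, is built on Rplp0 with pairs of Rplp1 and Rplp2. Rplp1 had the highest liver level of all members, at 1293.03, 1722.86 and 1440.20 TPM in Veh and 1085.47, 1199.86 and 1317.27 TPM in CORT. CORT3 lay above Veh1, so its groups overlapped. Rplp0 was at 448.87, 582.66 and 457.43 TPM in Veh and 384.98, 411.06 and 447.50 TPM in CORT, where the groups met without overlapping. Rplp2 was at 217.72, 287.46 and 228.80 TPM in Veh and 173.65, 182.82 and 220.14 TPM in CORT. The log2 fold changes of Rplp0, Rplp1 and Rplp2 were -0.25, -0.30 and -0.34 with adjusted p-values of 0.34, 0.27 and 0.23, and none passed. The next liver levels were those of Rpl13a, at 1224 ± 241 TPM in Veh and 875 ± 124 TPM in CORT, and of Rpl41, the smallest ribosomal protein, at 1095 ± 146 and 983 ± 82 TPM (SD, n = 3). In Veh, the range of Rplp1 overlapped that of Rpl13a and lay above that of Rpl41, and the ranges of Rpl13a and Rpl41 overlapped.

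Among small subunit members, Rps18 was at 873.73, 977.98 and 899.38 TPM in liver Veh and at 614.57, 660.17 and 678.35 TPM in CORT, and the groups lay far apart. Its log2 fold change was -0.49 (SE 0.12, adjusted p = 0.056). Rpsa, which also occurs as a laminin receptor at the cell surface, was at 554.40, 652.59 and 589.82 TPM in Veh and 395.15, 421.84 and 469.46 TPM in CORT (-0.48, SE 0.13, adjusted p = 0.075), again without overlap. Rps27a, made as a fusion with ubiquitin, had the lowest fold change of the core: 144.04, 198.63 and 159.08 TPM in Veh and 97.76, 116.29 and 120.88 TPM in CORT (-0.57, SE 0.16, adjusted p = 0.083). All 3 genes had lower CORT values in each library, and none passed the test with TPM as deposited. Rps3, which sits where the messenger enters the ribosome, had the fold change nearest 0 of the core. It was at 255.06, 419.99 and 292.59 TPM in Veh and 278.24, 289.93 and 349.81 TPM in CORT, and without Veh2 its log2 fold change was 0.16 instead of -0.05. Rps6, the substrate of the S6 kinases, was at 409.89, 709.05 and 553.78 TPM in Veh and 412.96, 458.13 and 477.36 TPM in CORT, with Veh1 below all 3 CORT libraries. Rps3 and Rps6 were chosen after their values were seen.

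**Figure D3:**
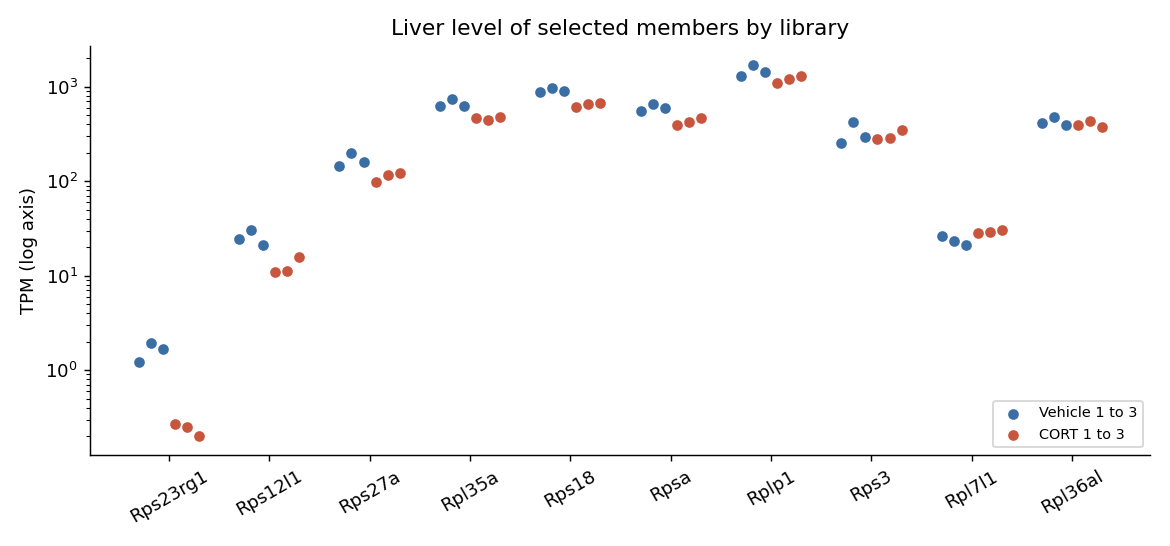
TPM of 10 members in each liver library on a log axis, with Veh 1 to 3 in blue and CORT 1 to 3 in red from left to right. The groups are apart and lower in CORT for Rps23rg1, Rps12l1, Rps27a, Rpl35a, Rps18 and Rpsa, they overlap for Rplp1, Rps3 and Rpl36al, and Rpl7l1 is higher in CORT.

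Ribosomal or ribosome-bound proteins with other names include Fau, made as a fusion with a ubiquitin-like protein, and Rack1, a scaffold on the small subunit. Their liver means were 581 ± 113 and 306 ± 50 TPM in Veh and 479 ± 42 and 277 ± 25 TPM in CORT (SD, n = 3). Both were lower in CORT, with log2 fold changes of -0.26 and -0.13, and neither passed the test (limma, adjusted p = 0.39 and 0.62).

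The members outside the core held the extremes in liver. Rps23rg1, a retroposed copy of Rps23, was at 1.22, 1.95 and 1.69 TPM in Veh and 0.27, 0.25 and 0.20 TPM in CORT, a log2 fold change of -1.07 (SE 0.21, limma adjusted p = 0.032). Rps12l1, a copy of Rps12, was at 24.24, 30.75 and 21.27 TPM in Veh and 10.83, 11.31 and 15.88 TPM in CORT, a log2 fold change of -0.95 (SE 0.20, adjusted p = 0.036). These were the 2 calls, and both groups stood clearly apart. Rps23rg1 had a mean of 0.24 TPM in CORT and entered the test only through its Veh mean of 1.62 TPM, so it had to differ. Its calls, with TPM as deposited or after a scaling, add no support. With any of Veh1, Veh2, Veh3, CORT1 or CORT2 left out, 0 members were called, and without CORT3 1 was, Rps12l1. Rps27rt, a retrogene of Rps27, was at 5.50, 38.13 and 16.58 TPM in Veh and at 13.50, 0.00 and 5.45 TPM in CORT, so its log2 fold change of -1.86 (SE 1.04, adjusted p = 0.30) rests on a spread of the whole range within each group. Reads of such copies can be assigned to the parent gene or to the copy, so the values of both are uncertain.

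Rpl7l1, related to the large subunit protein Rpl7 and known as an assembly factor, was the 1 member of 87 that was higher in CORT without overlap. Over all genes tested in liver, 2411 of 11699 were higher without overlap. Rpl7l1 was at 26.46, 23.58 and 21.28 TPM in liver Veh and 28.12, 28.80 and 30.53 TPM in CORT (0.29, SE 0.13, adjusted p = 0.21). Its share of the pair Rpl7 and Rpl7l1 was 6.82% ± 0.79 in Veh and 9.87% ± 0.49 in CORT, with every CORT library above every Veh library (exact two-sided permutation p = 0.1, the smallest possible). In intestine the share was 5.17% ± 0.12 and 5.33% ± 0.23 (SD, n = 3, exact permutation p = 0.3). When each library was scaled so that the core members stood level, 3 members were called in liver: Rpl7l1 higher and Rps23rg1 and Rps12l1 lower. That scaling was chosen after the data had been seen, and 23.9% of all genes were called under it.

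Rpl36al and Rps27l, the related genes of Rpl36a and Rps27, had near-equal levels in both tissues. In Veh mice, Rpl36al in liver was at 0.936 times its intestine level and Rps27l at 0.937 times, whereas Rpl36a was at 0.707 times and Rps27 at 0.337 times. This was not particular to related genes, since the core members Rpl37 and Rpsa were at 0.976 and 0.891 times. Nor did all related genes share it. Rpl22l1 was at 0.368 times, below Rpl22 at 0.693 times, and Rpl7l1 was at 0.666 times, above Rpl7 at 0.497 times. Rpl36al was at 418.17, 484.86 and 393.72 TPM in liver Veh and 398.49, 437.66 and 378.67 TPM in CORT, with no separation of the groups. It made up 59.2% ± 2.2 of the pair Rpl36a and Rpl36al in Veh and 64.1% ± 3.0 in CORT (SD, n = 3), and the exact permutation p was 0.2. In intestine the share was 52.1% ± 1.9 in Veh and 48.2% ± 1.3 in CORT (exact permutation p = 0.1, groups apart). Rps27l made up 28.3% ± 2.2 and 29.5% ± 4.2 of its pair in liver, and Rpl22l1 11.6% ± 2.0 and 11.4% ± 1.8, with overlapping groups (exact permutation p = 0.7 and 0.8). Rps4l made up 7.77% ± 2.5 of the pair with Rps4x in Veh and 11.9% ± 2.5 in CORT (exact permutation p = 0.1), with CORT1 only just above Veh1. It was at 36.67, 25.19 and 30.42 TPM in liver Veh and 32.84, 39.70 and 56.93 TPM in CORT, with overlapping groups. Its log2 fold change of 0.45 (SE 0.23, limma adjusted p = 0.26) was the highest of the members in liver. The 2 members left, Rps19bp1 and Rpl37rt, were at 16.42 to 22.25 and 66.48 to 144.53 TPM over all liver libraries, with log2 fold changes of 0.05 and -0.03 that changed sign when single libraries were left out.

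In intestine no member was called by the same rule (limma, 0 of 87, against 2.15% of the 13607 genes tested), and 1, Rps19bp1, had an unadjusted p under 0.05. Of the 87 members 60 were lower in CORT and 27 higher, and the median log2 fold change was -0.09, with that of all genes at -0.01. In 6 members the CORT libraries lay below all Veh libraries (Rpl32, Rpl36al, Rps10, Rps19bp1, Rps27 and Rps3), against 14.3% of all genes, and in 0 members above them, against 12.2%. Both shares of the members were under the background. The count among core members rose from 4 of 77 to 33 of 77 without Veh2 and to 27 without CORT1, where the shares over all genes were 19.3% and 19.7%. Veh2 is the library with the highest acinar share. Without both Veh2 and Veh3 the median was -0.18. With 40 acinar genes removed from every library, the summed difference was -0.14 on the log2 scale instead of -0.11. These 40 were the 38 genes above with Reg1 and Zg16. Reg1 and Zg16 had means of 3334 and 5469 TPM in Veh and 2932 and 6067 TPM in CORT.

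Rps27 had the highest level of all in intestine, at 2735.29, 2485.68 and 2541.58 TPM in Veh and 2377.99, 2265.28 and 2282.12 TPM in CORT. Its groups lay apart with a log2 fold change of -0.16 (SE 0.13, adjusted p = 0.52). Rplp1 and Rpl13a followed at 2328 ± 222 and 2084 ± 246 TPM in Veh (SD, n = 3), and in Veh the range of Rps27 overlapped that of Rplp1 but lay above that of Rpl13a. The lowest fold changes were those of Rps19bp1, Rpl13, Rps2 and Rps14, from -0.33 to -0.25. In Rpl13 and Rps2, CORT3 held 665.01 and 997.59 TPM where the other 5 libraries held 979.54 to 1161.21 and 1267.36 to 1707.08 TPM, and without CORT3 their fold changes were -0.08 and -0.07. The highest fold changes were those of the copies Rps27rt (0.76), Rps12l1 (0.58) and Rpl37rt (0.36), and of Rpl5 (0.25), which joins the ribosome together with the small 5S RNA. Rps12l1 was at 13.09, 54.08 and 72.45 TPM in Veh and 77.55, 33.71 and 68.65 TPM in CORT, and without Veh1 its log2 fold change was -0.15. Rps27rt was at 5.62, 4.19 and 41.20 TPM in Veh and 17.86, 18.51 and 18.22 TPM in CORT, and without Veh3 it was called, with a log2 fold change of 1.71 (adjusted p = 0.023).

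**Figure D4:**
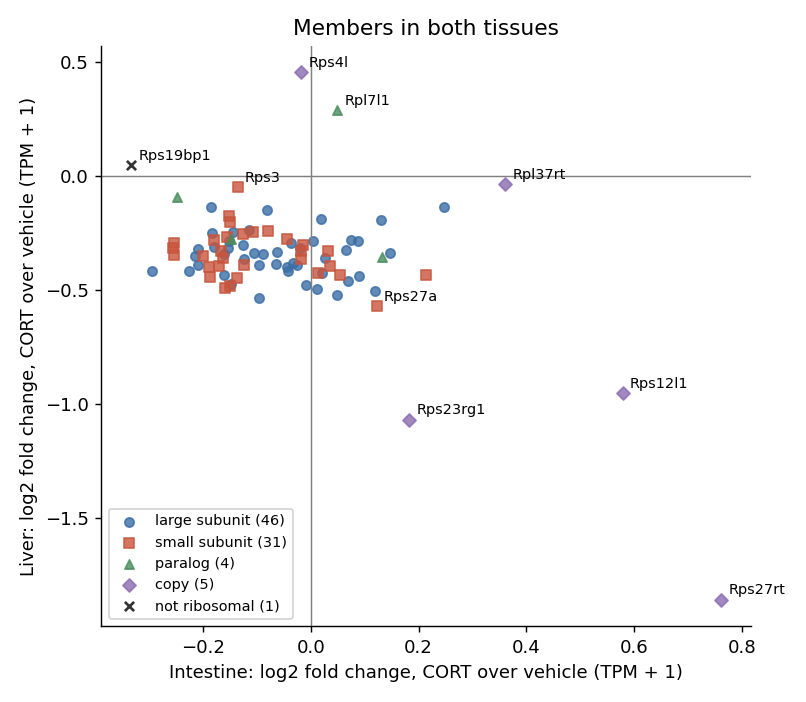
Log2 fold change of each of the 87 members in intestine (horizontal axis) and liver (vertical axis), CORT over Veh on the log2(TPM + 1) scale, with a symbol for each class. Core members spread around -0.10 in intestine and -0.34 in liver, and copies such as Rps27rt, Rps12l1 and Rps23rg1 lie far from them.

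Whether CORT acted differently on the members in the 2 tissues was tested with a treatment by tissue term over all 12 libraries. None of 87 members passed an adjusted p of 0.05 (limma), against 3% of 10500 genes, while 14 had an unadjusted p under 0.05 with the lower effect in liver, against 6.06% of all genes. The median of the liver effect minus the intestine effect was -0.26. Rps23rg1 had a difference of -1.25 (SE 0.32, adjusted p = 0.058), Rpl35a of -0.57 (SE 0.16, adjusted p = 0.083) and Rpl23 of -0.62 (SE 0.19, adjusted p = 0.10). After the median-ratio scaling 6 members passed, all with the lower effect in liver, against 4.23% of all genes: Rps27a, Rps24, Rpl35a, Rpl17, Rps23rg1 and Rpl23. The difference between tissues was therefore called or not depending on the scaling. Rps23rg1 passed the filter in liver only through its Veh mean, so its difference adds no support under either scaling.

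Ribosomal protein transcripts were set beside those of other abundant genes with a short annotated length. This length was the median over all annotated transcripts of a gene (GENCODE M21). Genes whose main transcript is longer can therefore be among them. In liver, 520 other genes with such a length under 1000 nt and at least 100 TPM had a median log2 fold change of 0.02. The 70 core members in the same class had a median of -0.34. In intestine 746 such genes had a median of -0.11, and so had the 73 core members in that class. Rows with -ps names, annotated as pseudogenes, can take reads of the genes they copy. The 27 tested in liver had a median of -0.40, with 21 lower and 1 of them, Rpl36a-ps2, called. Adding all -ps rows to the members gave a summed difference of -21.5%, close to the -21.3% without them. Rpl12, chosen after its values were seen, was at 11.5 ± 1.9 TPM in liver Veh and Rpl5 at 13.5 ± 2.7 TPM (SD, n = 3), against 496 ± 75 TPM for Rplp0, and whether their reads were assigned to other rows was not tested.

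The ribosomal proteins were set beside the genes that build the ribosome. Of 67 ribosome assembly factors tested in liver, 49 were higher and 18 lower, where 58.4% of all genes tested were higher, with a median log2 fold change of 0.20 against 0.08 for all genes. The test called 5 of 67, all higher, a share near the 6.92% of all genes called. Nolc1, a nucleolar phosphoprotein, went from 7.77 ± 0.85 to 13.6 ± 0.68 TPM and Nop2, a methyltransferase of the large ribosomal RNA, from 7.16 ± 0.57 to 11.6 ± 0.37 TPM. Nob1, the nuclease that trims the end of the small ribosomal RNA, went from 5.55 ± 0.49 to 9.59 ± 1.3 TPM (SD, n = 3). Their adjusted p-values were 0.021, 0.028 and 0.039. Bysl and Dcaf13, factors of small subunit assembly, had log2 fold changes of 0.65 and 0.64 (adjusted p = 0.049 and 0.045). Of 19 genes of RNA polymerase I, which transcribes the ribosomal RNA, 12 were higher and 0 called, with a median of 0.15. In intestine 0 of 67 assembly factors were called and their median was -0.01.

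Translation factors whose transcripts carry a TOP tract, such as Eef1a1 and Eef2, leaned the way of the members but less. Of 17 tested in liver 14 were lower, with a median of -0.11, and 0 were called. The wider list of initiation and elongation factors had a median of 0.10 over 34 genes. The test called 2 of the 34 higher and 1 lower, a share near the 6.92% of all genes called. There Eif4e, the protein that binds the cap, rose from 18.8 ± 2.2 to 30.3 ± 1.2 TPM and Eif4g3, its scaffold, from 8.69 ± 0.52 to 13.7 ± 1.7 TPM, while Eef2k, the kinase that inhibits elongation factor 2, fell from 3.96 ± 0.40 to 1.61 ± 0.25 TPM (SD, n = 3; limma adjusted p = 0.030, 0.046 and 0.020). Of 78 mitochondrial ribosomal proteins, which form a separate ribosome, 52 were lower and 0 called, with a median of -0.07. The proteasome had 28 of 31 subunits higher with a median of 0.20, and the nuclear respiratory chain subunits a median of 0.02 over 74 genes. The transcripts of the mitochondrial genome summed to 75039 to 76724 TPM in Veh and 61905 to 69475 TPM in CORT, which was also lower without overlap.

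**Figure D5:**
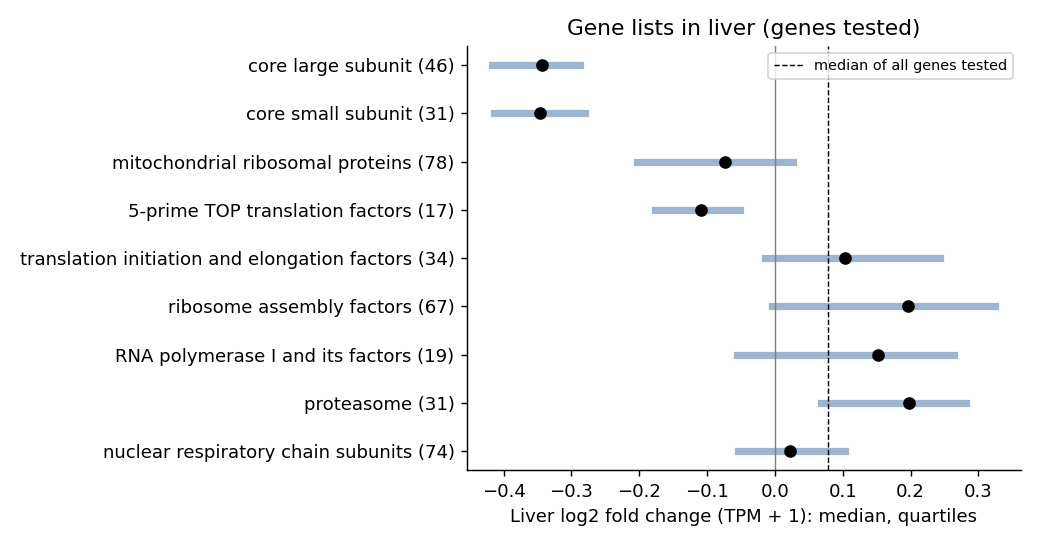
Median (point) and quartiles (bar) of the liver log2 fold change for 9 gene lists, with the number of genes tested in parentheses. The dashed line is the median of all genes tested, 0.08. Both core subunit lists lie near -0.34, and the assembly factors and proteasome near 0.20.

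Several genes of a list on TOR control of translation and growth passed the test. The list was wider than the TOR pathway, and Mxd1 below is a Myc antagonist. In liver Ddit4 and Sesn2, which both inhibit TOR complex 1, rose with log2 fold changes of 3.16 and 0.77 (limma adjusted p = 0.045 and 0.022). Ddit4 spread widely, at 9.46 ± 9.4 TPM in Veh and 84.5 ± 52 TPM in CORT (SD, n = 3). Eif4ebp3, which binds Eif4e and blocks initiation, went from 71.9 ± 46 to 334 ± 42 TPM in liver (2.37, adjusted p = 0.018) and from 15.6 ± 8.7 to 283 ± 57 TPM in intestine (4.27, adjusted p = 0.011). Pdcd4, an inhibitor of the initiation helicase, fell by 0.78 in liver (adjusted p = 0.034). In intestine Mxd1, which opposes Myc at its target genes, fell by 0.96 (adjusted p = 0.027). In all, 4 of 27 genes of this list were called in liver, where 6.92% of all genes were, and 2 of 28 in intestine, where 2.15% were. These few calls were not compared with the background by a test. Of 13 hosts of the small nucleolar RNAs that guide ribosomal RNA modification, Snhg3 was called in liver, at 11.1 ± 3.3 TPM in Veh and 77.1 ± 27 TPM in CORT (SD, n = 3; 2.67, adjusted p = 0.0060). Of the 13, 6 were higher and 7 lower, with a median of -0.30, and 1 call of 13 is near the background.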

How the data were processed

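Duodenum and liver RNA was sequenced from 3 Veh and 3 CORT samples per tissue, grouped by the sample labels. Reads were trimmed (SeqPrep, Sickle), aligned (HISAT2), assembled (StringTie) and quantified (RSEM) by the authors on GRCm39 per the submitters' processing notes. Tool versions are not given in the sources used here. The authors deposited TPM for each gene in each library. TPM keeps no depth, so counting error is unknown.

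Members and gene lists were chosen with earlier results of these data known. Genes averaging 1 TPM or more in a group were tested as log2(TPM + 1), which understates changes of low genes, with limma 3.58.1 in R 4.3.3 (lmFit, eBayes with trend) and Benjamini-Hochberg adjustment over all genes tested. The calls used the study's thresholds, fold change over 1.5 and adjusted p at most 0.05. The study itself tested read counts. The tissue difference used a treatment by tissue term and the adjusted p alone. Sums were compared by exact two-sided permutation. The fits were tested on simulated data.

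Named genes were the called members, the 4 highest and 4 lowest fold changes and 3 highest levels per tissue, the stalk proteins and Rpsa, related pairs, Rack1, Fau and called genes of other lists. Some genes that this rule selects are not reported here. Alternatives were a pseudocount of 0.1 TPM, no filter, median-ratio scaling, the replicate block and leaving out each library. Marker lists of other cells were also computed.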

Additional observations from a re-analysis of the deposited data

How the results depend on the processing

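Of the values that answer a comparison, 71 stayed within their limits and 23 moved. A summed TPM counted as staying whenever its direction held, whatever the size of the difference. The liver core sum differed by -21.6% with all libraries and by -14.8% without Veh2. Among single genes 190 values stayed, 14 fell short of the threshold, 6 newly passed it and 6 changed sign. These genes were the called members, the fold change extremes of each tissue, and Rpl3, Rpl35a, Rpl23 and Rps18 in liver. In liver, the 2 members called became 1 without the filter on low values, 8 under median-ratio scaling and 0 with the replicate block, and 0 to 1 when any library was left out. With the adjusted p alone, a count added after seeing the data, the 2 became 1, 39, 0 and 0 to 1 under the same settings. In intestine the 0 called became 1 (Rps27rt) without Veh3, a range of 0 to 1. For the treatment by tissue term the 0 became 1 (Rps23rg1) with a pseudocount of 0.1 and 6 under median-ratio scaling. It became 0 to 1 when a library was left out (1, Rps23rg1, without intestine CORT3). The intestine median was -0.18 without both Veh2 and Veh3. The cause of these changes was not tested. Over all libraries left out, the liver median of the members lay between -0.43 and -0.23. Among the single genes counted above, Rps12l1 changed sign in intestine (-0.15 to 1.04 over libraries left out, negative without Veh1). In liver Rpl37rt did (-0.23 to 0.30, positive without Veh2 or CORT1). So did Rps19bp1 in liver (-0.044 under median-ratio scaling and -0.076 to 0.13 over libraries left out, negative without Veh3 or CORT3). Core members not counted there also changed sign over libraries left out, such as Rps3 (-0.20 to 0.16) and Rpl5 (-0.22 to 0.012) in liver. Rpl10 did so in intestine (-0.038 to 0.099).

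The replicate block gave 0 members called in intestine, 0 in liver and 0 for the treatment by tissue term, and 62 and 307 genes in all in intestine and liver instead of 292 and 810. Deviations of same-numbered Veh and CORT libraries correlated at 0.054, 0.073 and -0.0039 in intestine and 0.038, -0.0084 and -0.12 in liver. With 3 libraries per group such values cannot show whether same-numbered samples were paired, and the labels do not say. TPM keeps no depth, so what depth limits cannot be stated. The fold limit alone bars a difference of the core members' median size, -0.34, from being called.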

Other observations

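Marker lists of other cells, tested the same way, gave these values beside the ribosomal protein results. In liver, 12 hepatocyte genes summed to 140297 to 176161 TPM in Veh and 154826 to 158641 TPM in CORT, and 1 of them, Hnf4a, rose (0.86 on the log2 scale, limma adjusted p = 0.021). Of 10 macrophage genes in liver, 8 were higher and 0 were called, and their sum overlapped between the groups, from 209.32 to 289.38 TPM in Veh and from 173.51 to 490.66 TPM in CORT. The smooth muscle list had 5 genes tested in liver, of which Mylk was called higher (0.87, adjusted p = 0.024) while 3 were lower and the median was -0.13, and 8 in intestine, all lower with 0 called. Of the proliferating cell genes, 10 of 15 were lower in intestine and 3 of 7 in liver, with 0 called in either. In intestine Igha, the heavy chain of the antibody secreted into the gut, fell from 8098 ± 834 to 3127 ± 662 TPM (SD, n = 3; -1.39, adjusted p = 0.027). Of the enterocyte genes, 7 of 12 were higher in intestine and 5 lower, with 0 called. The sum over the 12 lay between 33053 and 50128 TPM in Veh and between 56935 and 64767 TPM in CORT. Most of this sum was Apoa4, Rbp2 and Fabp1, with means of 9591, 10390 and 8084 TPM in Veh and 19837, 15984 and 13398 TPM in CORT. Anpep, Alpi and Vil1 went the other way, from 3059, 2384 and 1153 TPM in Veh to 2212, 1709 and 1029 TPM in CORT. In liver the enterocyte list held Apoa4, an apolipoprotein also made by hepatocytes, which was called higher (3.94, adjusted p = 0.024). The Kupffer cell lectin Clec4f was called higher in intestine, from 0.067 ± 0.076 to 7.67 ± 2.5 TPM (SD, n = 3; 2.99, adjusted p = 0.0045). Clec4f entered the test only through its CORT mean, so it had to differ, and its call adds no support. Clec4f was 1 of 8 macrophage genes tested there, 4 higher and 4 lower. Other markers of Kupffer cells stayed near 0, with Cd5l at 0.027 and 0.11 TPM and Marco at 0 and 0.067 TPM in Veh and CORT.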
